A study of Homo sapiens with 6 samples.

Results

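Cadherins, catenins, claudins, tight junction and desmosome genes were followed in PLC/PRF/5, a human hepatoma cell line, 48 hours after transfection with a plasmid expressing ARD1 or with a control vector. The plasmid's gene is NAA10 in current nomenclature and encodes the catalytic part of an N-terminal acetyltransferase. The set was chosen by name and function, with earlier results of these data known. In it 42 genes were listed, and 41 of them were among the 25071 genes measured by RNA-seq. CDH16 was not analysed here. Each group had 3 libraries, all from this 1 cell line, with the control libraries carrying the control vector in place of the ARD1 plasmid and no other stated difference. Separate cultures are not stated for the replicates, and the p-values therefore reflect only how these libraries vary, possibly for technical reasons.

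Epithelial cells are held together by 3 kinds of junction. In adherens junctions, cadherins of neighbouring cells bind each other through calcium-dependent extracellular repeats and are tied to actin through p120, beta- and alpha-catenin. In tight junctions, claudins and MARVEL proteins such as occludin form strands that limit what passes between cells, and scaffolds of the ZO and cingulin families link the strands to the cytoskeleton. In desmosomes, desmogleins and desmocollins connect through plakoglobin, plakophilins and desmoplakin to keratin filaments. In liver, hepatocytes carry both E- and N-cadherin, and their tight junctions seal the bile canaliculi.

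A library held between 21857327 and 25011357 counts. NAA10 itself checks the labels, at 34.6 ± 2.16 CPM with the vector and 349 ± 53.2 CPM with the plasmid (SD, n = 3; CPM are counts per library size after TMM scaling). Control replicate 1 was the least alike of the controls: divided by its degrees of freedom, the chi-square of its counts was 16.8 and 19.6 against the other two, which gave 2.93 between themselves. Counts without molecular identifiers are not independent molecules, and in bulk RNA fewer cells that express a gene and less of its RNA per cell cannot be told apart. The groups differed widely: of 15816 genes tested by edgeR's quasi-likelihood test, 64.6% passed an adjusted p of 0.05, 32.4% as higher and 32.2% as lower in the ARD1 libraries. With library totals and no scaling factors the median log2 fold change of all genes moved from 0.03 to 0.30 and the higher ones came to 68.5% of all calls in place of 50.2%, so a direction is given here against that TMM baseline.

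Most cadherins and desmosome genes that changed were lower in the ARD1 libraries, and more tight junction genes rose than fell. Of the 41 genes 32 had enough counts to test, and 27 of these passed (84.4%, beside 64.6% of all tested genes), 12 rising and 15 falling. With library totals and no scaling factors 28 passed, 15 as higher and 13 as lower, so which direction held the majority depended on the scaling. The median log2 fold change (ARD1 plasmid over control vector) was -0.12, beside 0.03 over all genes. In 30 of the 32 the libraries of the groups did not overlap, where 69.6% of all tested genes had no overlap, and 11 of the 32 changed by 2-fold or more, where 21.5% of all did. CDH5 and CLDN9 passed the low-count filter through 1 group only, so they could only enter the test by differing, and these shares describe the genes that could be tested. The set was also listed with earlier results of these data known, so a larger share than over all genes cannot be read as enrichment. By junction, 0 of 5 tested cadherins rose and 4 fell, 10 of 17 tight junction genes rose and 5 fell, and 1 of 7 desmosome genes rose and 4 fell. Of all tested genes 32.4% rose and 32.2% fell. These lists are short, CDH5 is among the cadherins that fell, and a difference between junction types was not tested.

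**Figure D1:**
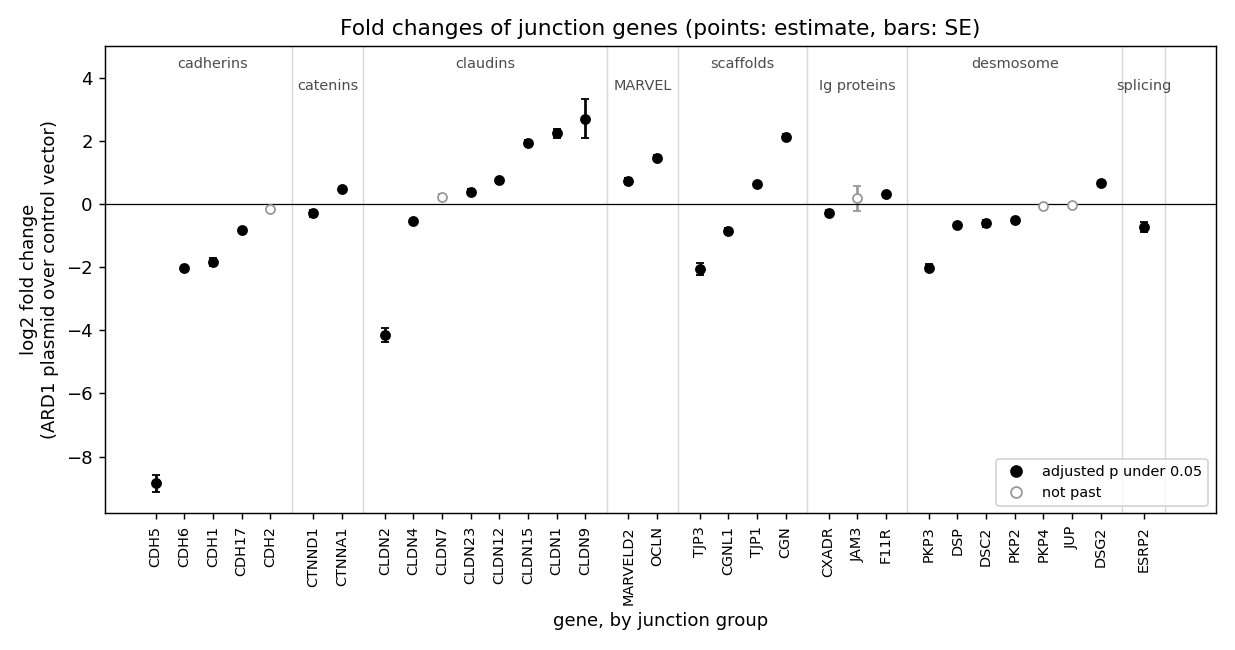
Log2 fold change of each tested junction gene (vertical axis, ARD1 plasmid over control vector) by junction group, with bars for the standard error; filled points passed an adjusted p of 0.05. CDH5 at -8.85 and CLDN2 at -4.14 lie lowest, and CLDN9 at 2.7, CLDN1 at 2.24 and CGN at 2.13 highest.

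CDH1 encodes E-cadherin, the main epithelial cadherin, and lies on chromosome 16 at 68737225 to 68835548 on the plus strand (GRCh38, GENCODE 29). Its level was 43.2, 36.2 and 38.1 CPM in the controls and 10.2, 9.81 and 12.8 CPM in the ARD1 libraries. Every control library was above every ARD1 library, and CDH1 fell with a log2 fold change of -1.84 (SE 0.115, adjusted p = 3.54e-09). CDH2, N-cadherin, was at 231, 230.1 and 205 CPM in the controls and 195, 205 and 195 CPM in the ARD1 libraries. The lowest control and the highest ARD1 library both round to 205 CPM, so the gap was barely open, and CDH2 did not pass the test (-0.17, SE 0.0706, adjusted p = 0.0518). Its call rested on the setting: it passed as lower without control replicate 1 (-0.15, adjusted p = 0.00787) and without control replicate 3 (-0.25, adjusted p = 0.0105), and its estimate was 0.10 with library totals alone (adjusted p = 0.167; 0.00201 to 0.180 over all alternatives). Within a library, which no scaling affects, there were 5.70 ± 0.570 CDH2 counts for each CDH1 count in the controls and 18.4 ± 2.84 in the ARD1 libraries (SD, n = 3), a change of 3.21-fold.

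The largest difference in the set was in CDH5, the cadherin that joins endothelial cells, on chromosome 16 at 66366622 to 66404786. It had 777, 642 and 747 counts in the control libraries and 1, 0 and 4 in the ARD1 libraries. The gene was therefore well expressed in this hepatoma line with the control vector and close to the detection limit with ARD1 (log2 fold change -8.85, SE 0.264, adjusted p = 1.54e-12). The size rests on those 5 counts, at -10.36 without ARD1 replicate 3 and -8.26 without ARD1 replicate 2. The other 4 endothelial markers that could be tested moved the other way. PECAM1 (0.82), KDR (2.05), ESAM (0.95) and VWF (from 0, 0 and 2 counts to 39, 28 and 38) rose. VWF passed the low-count filter through the ARD1 group only. TIE1, ERG and CLDN5 had at most 3 counts over all 6 libraries, and TEK, too low to test, had 10, 17 and 11 counts and then 4, 4 and 4. The summed level of the 8 measured markers other than CDH5 was 65.4 to 80.8 CPM in the controls and 143 to 163 CPM in the ARD1 libraries.

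CDH6, K-cadherin, a type II cadherin of kidney and some tumours, was at 138, 146 and 146 CPM in the controls and 34.7, 36.3 and 34.4 CPM in the ARD1 libraries. Its libraries were tightly grouped and far apart between groups (log2 fold change -2.03, SE 0.0724, adjusted p = 1.00e-11). CDH17, the liver-intestine cadherin, which lacks the catenin-binding tail of classical cadherins, was at 147, 151 and 144 CPM and then 79.9, 81.2 and 88 CPM, and fell by less (-0.83, SE 0.0702). CDH3 (P-cadherin) and CDH11 (a mesenchymal cadherin) were too low to test, with 1 and 0 counts over the 3 control libraries and 2 and 4 over the 3 ARD1 libraries. By library totals without TMM scaling, 3 counts in a library correspond to 0.120 to 0.137 CPM, and levels near or below that rest on very few counts.

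The make-up of the cadherin transcripts differed between the groups. Per kilobase of exon sequence (merged GENCODE 29 exons), the order of levels in the controls was CDH2 at 44.9, CDH17 at 37.7, CDH6 at 11.6, CDH1 at 6.34 and CDH5 at 5.44 CPM per kb, and the libraries of CDH1 (5.86 to 7) and CDH5 (5.01 to 5.81) did not overlap but lay close. With the longest transcript as length their order turned, at 6.45% of the cadherin sum for CDH1 and 6.47% for CDH5. In the ARD1 libraries the order was CDH2 at 40.0, CDH17 at 21.3, CDH6 at 2.84, CDH1 at 1.77 and CDH5 at 0.0111 CPM per kb. The summed level of the 7 measured cadherins went from 106 ± 3.61 to 65.9 ± 1.38 CPM per kb. CDH2 made up 42.3% ± 1.40 of that sum in the controls and 60.7% ± 1.59 in the ARD1 libraries (SD, n = 3), and CDH6 went from 10.9% ± 0.625 to 4.31% ± 0.126. These shares describe the libraries and were not tested.

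**Figure D2:**
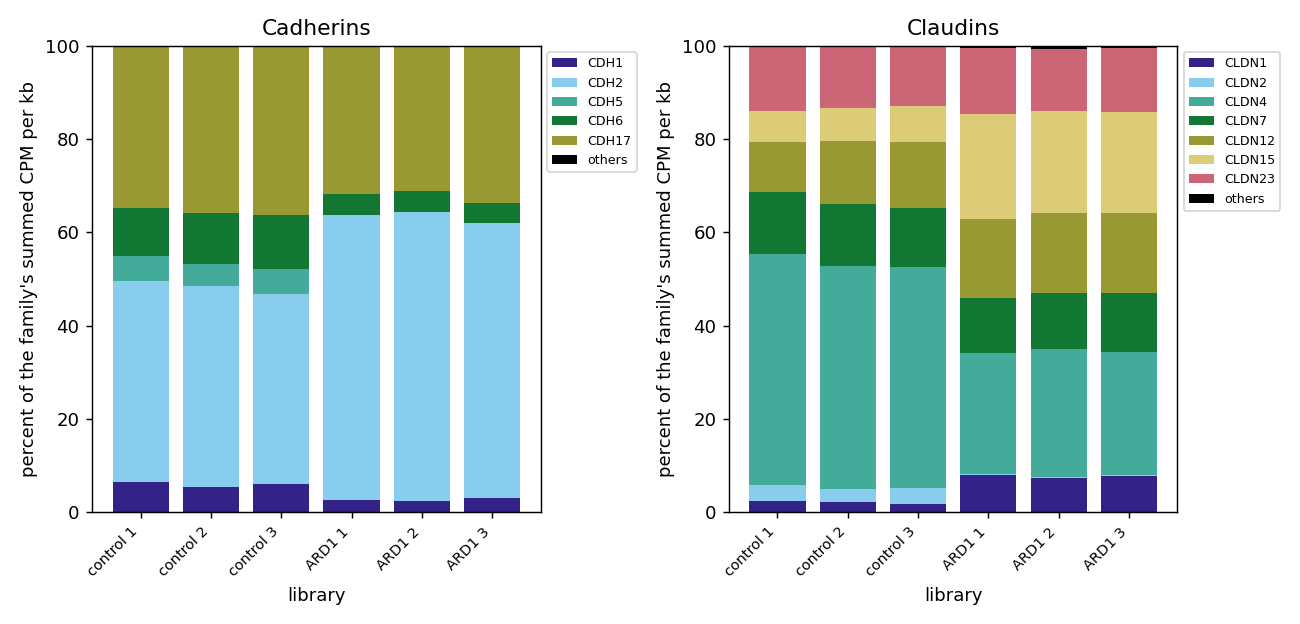
Share of each gene in the summed CPM per kb of its family (vertical axes, percent), 1 bar for each of the 6 libraries, for 7 cadherins and 12 claudins; genes under 1% in all libraries are pooled as others. CDH2 fills more of the bar in the 3 ARD1 libraries, and CLDN4 falls from 47.3% to 49.7% of the claudin sum to between 26% and 27.5% while CLDN15 and CLDN1 take more.

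The catenins moved by small amounts in opposite directions. CTNNA1, alpha-catenin, which links the cadherin complex to actin, was at 397, 345 and 345 CPM in the controls and 494, 518 and 495 CPM in the ARD1 libraries. It rose (0.47, SE 0.0727, adjusted p = 4.66e-05) although CDH1 fell, and the count ratio of CTNNA1 to CDH1 went from 9.27 ± 0.247 to 46.6 ± 7.13. CTNND1, p120-catenin, which stabilises cadherins at the membrane, was at 22.6, 25 and 20.1 CPM and then 19.0, 16.3 and 19.7 CPM. The gap between the groups was small beside the spread, and its fall (-0.30, adjusted p = 0.0260) was lost with library totals alone (-0.03, adjusted p = 0.797; 0.000619 to 0.797 over all alternatives) and without control replicate 2, ARD1 replicate 1 or ARD1 replicate 2 (adjusted p = 0.0975, 0.0501 and 0.137). CTNNB1, beta-catenin, which is no member of the set, did not pass (0.08, adjusted p = 0.309).

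Claudins went both ways, with 5 of 8 tested rising and 2 falling, beside 32.4% and 32.2% of all tested genes. CLDN1, a sealing claudin and a coreceptor of hepatitis C virus entry, on chromosome 3 at 190305701 to 190322475, was at 7.27, 5.84 and 4.49 CPM in the controls and 28.9, 26 and 28.1 CPM in the ARD1 libraries. The groups lay far apart, and CLDN1 rose 4.72-fold (log2 fold change 2.24, SE 0.140, adjusted p = 3.60e-09). CLDN15, which forms cation channels, on chromosome 7 at 101232092 to 101238820, was at 16.4, 15.7 and 17.2 CPM and then 64.7, 61.5 and 61.6 CPM, and rose 3.81-fold (1.93, SE 0.0832, adjusted p = 6.20e-11). CLDN12 was at 60.8, 69.8 and 71.3 CPM and then 113 CPM in each ARD1 library (0.75, SE 0.0767). The single-exon gene CLDN23 rose from 22.5 ± 2.28 to 29.1 ± 1.30 CPM (0.37, adjusted p = 0.00355). CLDN9 was near the detection limit, with 2, 4 and 0 counts in the controls and 19, 13 and 15 in the ARD1 libraries (2.7, SE 0.630, adjusted p = 0.00165), and its estimate ran from 2.09 without control replicate 3 to 3.62 without control replicate 2. Of CLDN12 exon bases, 16.3% overlap exons of other genes on the same strand.

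CLDN2, a channel claudin that lets cations and water through and is known from bile canaliculi, moved the other way. On chromosome X at 106900164 to 106930861, it was at 9.77, 7.22 and 9.20 CPM in the controls and 0.418, 0.599 and 0.443 CPM in the ARD1 libraries. Even the lowest control library was far above the highest ARD1 library (log2 fold change -4.14, SE 0.224, adjusted p = 7.69e-10). Exons of RIPPLY1 lie opposite part of CLDN2, and the strand setting of the counting is not given in the sources used here. CLDN4, the most abundant claudin per kilobase of merged exons in the controls, fell from 179 ± 15.6 to 123 ± 2.22 CPM (-0.55, SE 0.0748, adjusted p = 1.46e-05). In single libraries it was at 197, 172 and 168 and then 121, 125 and 122 CPM, without overlap.

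CLDN7, often found along the side walls of epithelial cells, was at 27.8, 25.4 and 24.2 CPM in the controls and 29.5, 28.8 and 31.1 CPM in the ARD1 libraries. The libraries did not overlap, yet the test was not passed (0.21, SE 0.0893, adjusted p = 0.0536). It passed as higher without control replicate 1 (0.25, adjusted p = 0.00488), and the estimate was 0.58 after a GC and length correction (adjusted p = 6.50e-07; 6.50e-07 to 0.267 over all alternatives). CLDN3, CLDN6, CLDN10 and CLDN14 were too low to test, at 2, 2, 10 and 13 counts over the control libraries and 5, 4, 19 and 5 over the ARD1 libraries, so no difference could be shown at this depth. Exons of DZIP1 lie opposite 46.1% of CLDN10 exon bases.

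The claudin transcripts were thus divided differently. CLDN4 made up 48.3% ± 1.27 of the summed claudin CPM per kb in the controls and 26.6% ± 0.813 in the ARD1 libraries, and CLDN15 went from 7.21% ± 0.579 to 22.1% ± 0.407 (SD, n = 3). CLDN1 went from 2.02% ± 0.372 to 7.70% ± 0.316 and CLDN2 from 3.24% ± 0.422 to 0.146% ± 0.0313. The sum itself was 78.9 ± 4.75 CPM per kb in the controls and 98.1 ± 1.28 in the ARD1 libraries. With the longest transcript in place of merged exons, CLDN4 came to 43.8% and 23.0%, CLDN12 to 19.3% and 24.7% and CLDN15 to 7.86% and 22.9%. By that length CLDN12 and not CLDN4 held the largest share in the ARD1 libraries.

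CLDN4 and CLDN15 share a promoter motif, and its part in their levels was not tested. RefSeq windows of 250 bases before the start (GRCh38.p14) were at hand for 23 of the 42 genes, in 40 windows, and were searched on both strands for TGACTCA, the site bound by AP-1. Of these genes 2 held it, CLDN4 and CLDN15, beside 4.20% of all 35116 windows, and CLDN4 fell while CLDN15 rose. The CLDN4 window is chr7:73830746-73830995 on the plus strand and the CLDN15 window chr7:101237803-101238052 on the minus strand. Capitals mark the motif, which begins 161 and 219 bases before the start and reads on the opposite strand in CLDN15.
CLDN4: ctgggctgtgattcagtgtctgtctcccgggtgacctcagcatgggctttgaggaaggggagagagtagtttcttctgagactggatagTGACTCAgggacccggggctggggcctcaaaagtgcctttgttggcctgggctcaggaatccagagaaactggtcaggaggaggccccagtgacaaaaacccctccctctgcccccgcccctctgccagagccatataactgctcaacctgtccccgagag
CLDN15: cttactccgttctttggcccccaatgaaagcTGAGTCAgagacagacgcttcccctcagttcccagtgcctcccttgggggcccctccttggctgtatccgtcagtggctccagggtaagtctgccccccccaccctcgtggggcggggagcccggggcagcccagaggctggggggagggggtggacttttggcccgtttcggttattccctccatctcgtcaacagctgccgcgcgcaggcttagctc
A match of letters describes the window and shows no binding.

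Both tested MARVEL genes of the tight junction rose. OCLN, occludin, which shapes strands and regulates the passage of larger molecules, was at 8.59, 8.83 and 8.84 CPM in the controls and 23.4, 23.6 and 24.9 CPM in the ARD1 libraries. The spread within each group was small beside the gap (log2 fold change 1.45, SE 0.0981, adjusted p = 8.39e-09). MARVELD2, tricellulin, which seals the corners where 3 cells meet, was at 17.8, 17.1 and 17.1 and then 28.1, 29 and 29.4 CPM (0.73, SE 0.0874, adjusted p = 3.78e-06). MARVELD3, with 11 counts over the control libraries and 7 over the ARD1 libraries, could not be tested. OCLN has a named pseudogene, OCLNP1, so its counts are uncertain where reads match both; CTNNA1, CXADR and PKP4 have such copies too.

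Among the scaffolds, each family had 1 gene that rose and a paralogue that fell. CGN, cingulin, an actin and myosin binding protein of the tight junction plaque, on chromosome 1 at 151510510 to 151538692, was at 33.4, 31.6 and 30.0 CPM in the controls and 133, 145 and 138 CPM in the ARD1 libraries. It rose 4.38-fold (2.13, SE 0.0775, adjusted p = 1.18e-11). CGNL1, paracingulin, which is found at both adherens and tight junctions, was at 21.9, 24.4 and 21.1 and then 11.7, 12 and 13.4 CPM (-0.86, SE 0.103, adjusted p = 3.98e-06). The CGN to CGNL1 count ratio within a library was 1.41 ± 0.113 in the controls and 11.2 ± 0.926 in the ARD1 libraries.

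TJP1, ZO-1, which binds claudin tails and starts strand assembly, rose from 89.0 ± 1.01 to 138 ± 4.02 CPM (0.64, SE 0.0670, adjusted p = 1.02e-06). Its libraries were at 88.6, 90.2 and 88.3 and then 134, 141 and 140.3 CPM. TJP3, ZO-3, a family member largely restricted to epithelia, was at 11, 8.50 and 6.73 CPM in the controls and 2.09, 2.21 and 1.93 CPM in the ARD1 libraries. The controls were scattered but lay above the ARD1 libraries throughout (-2.07, SE 0.195, adjusted p = 3.21e-07). The TJP1 to TJP3 count ratio was 10.6 ± 2.55 in the controls and 66.8 ± 5.03 in the ARD1 libraries.

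**Figure D3:**
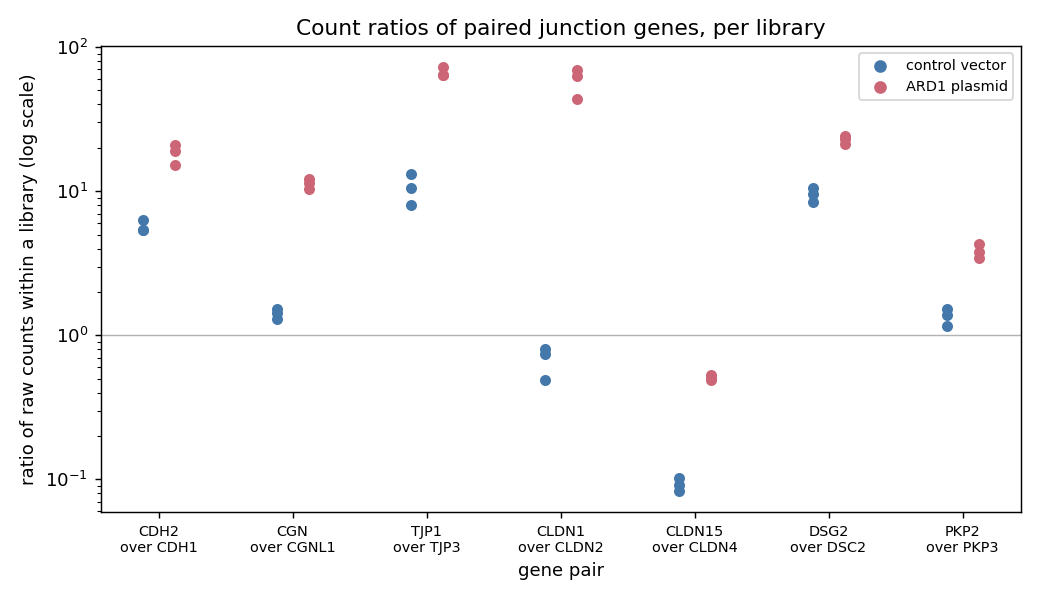
Ratio of raw counts of 2 junction genes within each library (vertical axis, log scale), for 7 pairs, with 1 point for each of 3 control and 3 ARD1 libraries. In each pair shown the ARD1 libraries lie above the control libraries, from 5.70 to 18.4 on average for CDH2 over CDH1 and from 0.680 to 58.7 for CLDN1 over CLDN2; the pairs were chosen after the values were seen.

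TJP1 and TJP3 also share a promoter motif. CAGGTG, an E-box bound by SNAI and ZEB repressors, was searched in the same windows on both strands and was held by 9 of the 23 genes (CLDN14, CLDN7, DSC2, DSG2, DSP, JUP, OCLN, TJP1 and TJP3), beside 17.5% of all windows, where several windows of 1 gene raise the first count. Of these, OCLN, TJP1 and DSG2 rose, TJP3, DSC2 and DSP fell, CLDN7 and JUP did not pass, and CLDN14 was not tested. The motif is shown in capitals for the scaffold pair, in 1 of 4 TJP1 windows (chr15:29969050-29969299, minus strand) and 1 of 2 TJP3 windows (chr19:3721487-3721736, plus strand), where it begins 88 and 7 bases before the start. The RefSeq start of this TJP1 window lies outside the GENCODE 29 model of the gene, which on this strand starts at 29968865.
TJP1: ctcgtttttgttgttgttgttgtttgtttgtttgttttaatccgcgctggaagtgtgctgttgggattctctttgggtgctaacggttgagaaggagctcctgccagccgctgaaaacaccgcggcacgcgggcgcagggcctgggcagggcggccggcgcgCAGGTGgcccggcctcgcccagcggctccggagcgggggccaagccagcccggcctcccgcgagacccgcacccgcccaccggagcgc
TJP3: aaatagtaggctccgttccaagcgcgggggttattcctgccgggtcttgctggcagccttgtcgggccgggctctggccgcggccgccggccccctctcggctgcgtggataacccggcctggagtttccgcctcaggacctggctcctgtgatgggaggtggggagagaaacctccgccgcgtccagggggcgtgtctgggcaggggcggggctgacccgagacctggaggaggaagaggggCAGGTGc
The letters alone do not show that a factor bound there.

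The immunoglobulin-like proteins of the tight junction differed little. F11R, JAM-A, an early landmark of junction assembly, was at 32.4, 27.6 and 29.5 CPM in the controls and 37.1, 37.0 and 36.3 CPM in the ARD1 libraries, a rise (0.30, adjusted p = 0.00634) that was lost without control replicate 2 (0.22, adjusted p = 0.0648; 4.57e-05 to 0.0648 over all alternatives). Exons of AL591806.3 on the same strand cover 36.6% of F11R exon bases. CXADR, the coxsackievirus and adenovirus receptor, was at 27.9, 35.1 and 34.0 and then 26.2, 25.7 and 27.8 CPM. The lowest control lay just above the highest ARD1 library, and its fall (-0.28, adjusted p = 0.0203) was lost with library totals alone (-0.02, adjusted p = 0.862; 1.30e-06 to 0.862 over all alternatives) and without control replicate 2, ARD1 replicate 1 or ARD1 replicate 2 (adjusted p = 0.0641, 0.0694 and 0.0774). JAM3, JAM-C, was low in both groups with overlapping libraries (0.598 ± 0.0865 and 0.676 ± 0.290 CPM, adjusted p = 0.707), and its estimate of 0.18 was -0.21 without ARD1 replicate 3.

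**Figure D4:**
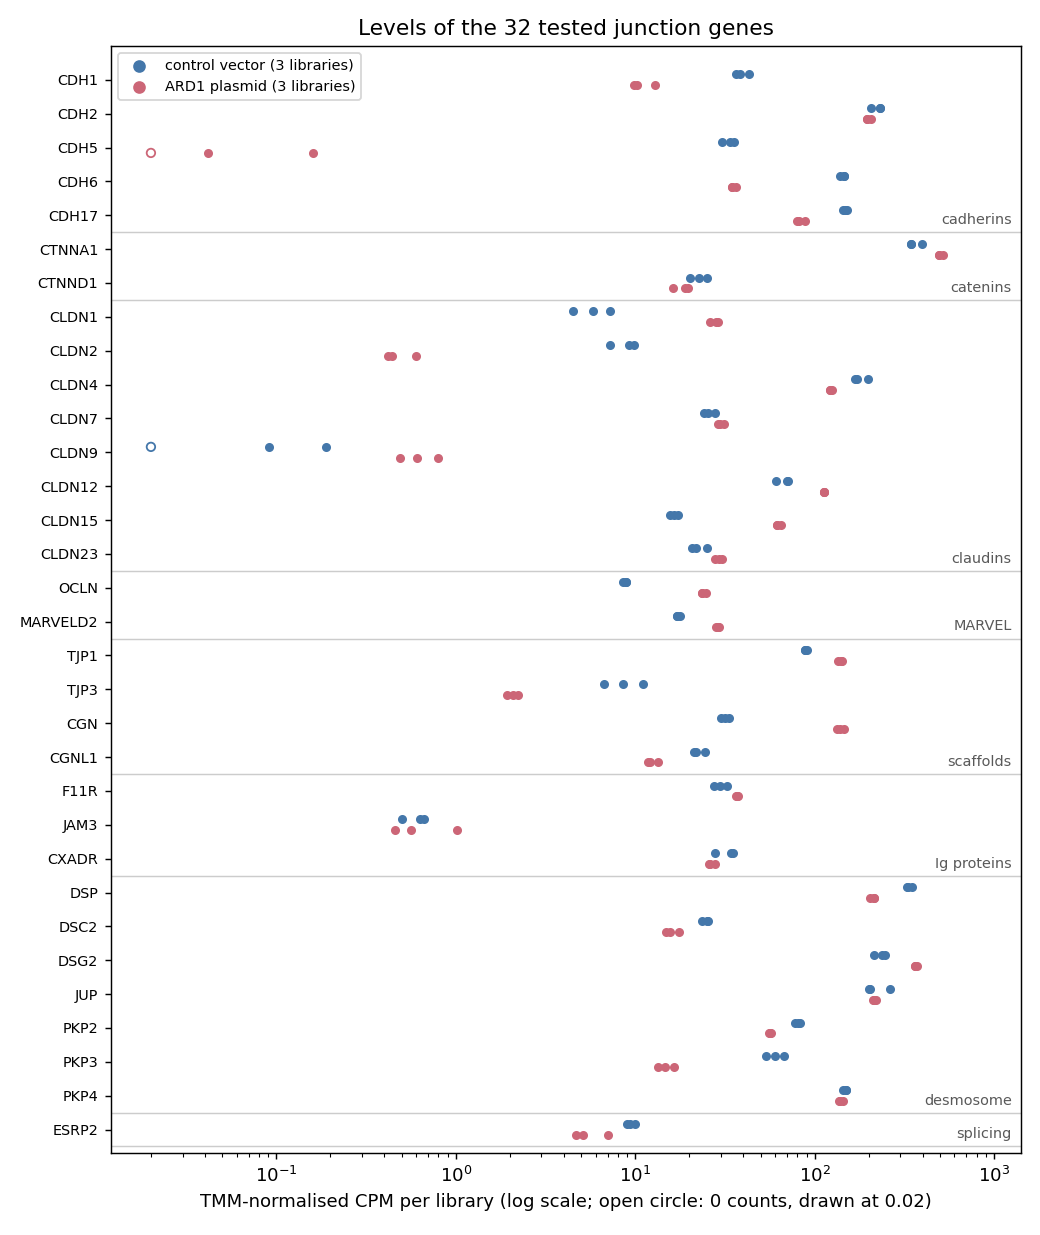
TMM-normalised CPM (horizontal axis, log scale) of the 32 tested junction genes in each of 3 control and 3 ARD1 libraries, grouped by junction type; open circles mark 0 counts. CDH5 and CLDN2 drop from near 33.1 and 8.73 to 0.0676 and 0.487 CPM on average, and the libraries of JAM3 and JUP overlap.

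Among the desmosome genes of the set the 1 desmoglein, DSG2, rose, while desmocollin 2, desmoplakin and 2 of 3 plakophilins fell. DSG2, desmoglein 2, the adhesive desmosomal cadherin of simple epithelia, on chromosome 18 at 31498043 to 31549008, was at 214, 246 and 238 CPM in the controls and 362, 360.1 and 373 CPM in the ARD1 libraries. It rose without overlap (0.65, SE 0.0709, adjusted p = 1.48e-06), while its partner DSC2, desmocollin 2, went from 25.4, 23.5 and 25.1 to 15.7, 14.9 and 17.5 CPM (-0.62, SE 0.0968, adjusted p = 5.21e-05). The DSG2 to DSC2 count ratio was 9.45 ± 1.02 in the controls and 22.8 ± 1.42 in the ARD1 libraries. DSP, desmoplakin, which anchors keratin filaments, was at 349, 331 and 326 CPM and then 214, 204 and 215 CPM (-0.67, SE 0.0661, adjusted p = 5.19e-07). KRT8, a keratin that desmoplakin anchors, fell as well (-0.63, adjusted p = 2.45e-05).

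Plakophilins cross-link the desmosomal plaque. PKP3, on chromosome 11 at 392614 to 404908, was at 67.1, 59.8 and 53.4 CPM in the controls and 16.4, 14.7 and 13.3 CPM in the ARD1 libraries. All 3 ARD1 libraries lay far below the controls (-2.02, SE 0.107, adjusted p = 5.85e-10), and after a GC and length correction the estimate was -1.42. PKP2 fell by less, from 80.3 ± 2.54 to 56.2 ± 0.484 CPM (-0.52, SE 0.0703, adjusted p = 1.43e-05). PKP4, a p120-related protein, did not pass at 148 ± 3.80 and 139.7 ± 2.98 CPM (-0.08, adjusted p = 0.310), and with library totals alone it passed as higher (0.19, adjusted p = 0.0205). It passed as lower without control replicate 1 (-0.11, adjusted p = 0.0355) and after a GC and length correction (-0.16, adjusted p = 0.00714; 0.00714 to 0.649 over all alternatives).

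JUP, plakoglobin, shared by desmosomes and adherens junctions, was at 264, 203 and 200.1 CPM in the controls and 218, 212 and 215 CPM in the ARD1 libraries. Control replicate 1 lay above all other libraries and the groups overlapped, so JUP did not pass (-0.05, SE 0.0935, adjusted p = 0.661). Its direction was not stable, at 0.08 without control replicate 1, 0.22 with library totals alone (adjusted p = 0.0301) and 0.37 after a GC and length correction (adjusted p = 1.60e-05; 1.60e-05 to 0.961 over all alternatives). JUP had the highest control level per kilobase among the desmosome genes, 45 CPM per kb, and DSG2 had the highest in the ARD1 libraries, 58.9. The summed level of the 7 genes was 161 ± 7.08 and 151 ± 2.14 CPM per kb.

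Of the epithelial genes outside the junctions proper, EPCAM, a surface adhesion protein that binds claudins, was close to undetected in this line. It had 4, 5 and 10 counts in the controls and 6, 13 and 2 in the ARD1 libraries and could not be tested. ESRP1 and ESRP2 direct epithelial splicing, among others of the p120-catenin transcript. ESRP1 had 4 counts over the control libraries and 8 over the ARD1 libraries. ESRP2 was at 9.32, 9.92 and 9.02 CPM and then 4.68, 5.13 and 7.04 CPM, without overlap (-0.74, SE 0.154, adjusted p = 0.000626).

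Other junction genes, listed by function, moved in both directions. Of 107 such genes 61 were tested, 26 rose and 17 fell, or 70.5% changed, close to the 64.6% of all tested genes, and their median was 0.14. Under library totals alone 73.9% of the changed ones were higher in place of 60.5%. Of 10 adherens junction partners 4 rose and 2 fell, with NECTIN2, an adhesion receptor linked to actin by afadin, falling from 475 ± 53.2 to 231 ± 6.56 CPM (-1.04) and ARHGAP32 (0.68) and ARVCF (0.57) rising. Of 22 polarity and scaffold genes 9 rose and 6 fell. Here CRB3, the epithelial Crumbs protein, fell (-1.17), and the angiomotin-like AMOTL2 (0.84) and the atypical protein kinase C gene PRKCI (0.55) rose. CDH23 (-2.37), CDH24 (0.59), CLDN11 (-1.83) and CLDND1 (0.53) changed among the other cadherins (1 of 4 rose, 1 fell) and claudins (1 of 2 rose, 1 fell). CDH23 and CLDN11 passed the low-count filter through the control group only, so they could only enter the test by differing.

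Among 5 other desmosome genes periplakin (PPL, 1.46) and PERP (0.40) rose. The desmoglein DSG4 fell (-2.32), and the desmoglein DSG1 did not pass (0.19, adjusted p = 0.589). DSG4 passed the low-count filter through the control group only. Gap junction genes, whose channels couple neighbouring cells, were 4 higher and 4 lower of 10 tested, with GJA5 falling (-3.21) and GJA3 rising (2.75). GJA3 and GJC1, both counted as higher, passed the filter through the ARD1 group only. Of 8 tested transcription factors of epithelial and mesenchymal state 5 rose and 2 fell. Of all tested genes 32.4% rose and 32.2% fell. The E-cadherin repressor SNAI1 fell from 47.0 ± 6.25 to 18.4 ± 0.511 CPM (-1.35, SE 0.101), while SNAI2 (1.11) and GRHL1, an activator of desmosomal cadherin genes (1.85), rose. ZEB1 (0.44) and ZEB2 (0.53), which repress CDH1, rose too. Of the rest of this list KLF4 rose (0.82), TCF3 fell (-0.64) and ELF3 did not pass (0.13). ZEB1, ZEB2, KLF4, TCF3 and ELF3 were named after their values were seen. The part of these factors in the fall of CDH1 was not tested. VIM, a mesenchymal filament gene, did not pass (-0.16, adjusted p = 0.315), and its estimate was 0.10 with library totals alone.

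Markers of cell types were measured beside these genes. Hepatocyte markers were uneven in this hepatoma line. ALB, FGB, TF and HNF4A had 20566, 14888, 10525 and 2283 counts over the 3 controls. APOB, AFP, AHSG and SERPINA1 had 403, 210, 63 and 35, and APOA1 and TTR were close to 0 (17 and 9). The cholangiocyte markers SPP1 and KRT19, at 583 and 502 CPM in the controls, lay above ALB at 315 CPM. In the ARD1 libraries ALB fell (-3.12) and HNF4A rose (0.25). The summed level of 10 hepatocyte markers was 737 to 769.9 CPM in the controls and 216 to 238 CPM in the ARD1 libraries, with 3 of 8 tested higher and 4 lower. For 7 cholangiocyte markers, EPCAM included, the sum was 1082 to 1156 and then 415 to 428 CPM, 4 of 4 tested falling, with CFTR at 2 counts over the 6 libraries. For 7 fibroblast markers it was 78.0 to 98.7 and then 18.2 to 20.6 CPM (1 of 5 tested higher, 2 lower), with COL1A2 at 5 counts in all. For 7 immune markers it was 16.8 to 19.1 and then 8.78 to 9.59 CPM (0 of 3 tested higher, 2 lower). Over all tested genes 32.4% were higher and 32.2% lower. These sums were lower in the ARD1 libraries, as were the junction genes that fell, but 12 junction genes rose. The endothelial sum without CDH5 went the other way, at 65.4 to 80.8 and then 143 to 163 CPM. Single markers did not all follow their sum. The most abundant hepatocyte markers in the controls, ALB, FGB and TF, fell, while APOB, SERPINA1 and HNF4A rose. Of the fibroblast markers COL3A1 and LUM fell and COL1A1 rose. SERPINA1 and COL1A1 passed the low-count filter through the ARD1 group only, and PTPRC, an immune marker that fell, through the control group only. The part of these sums in the falls of junction genes was not tested.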

How the data were processed

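RNA was measured in 6 libraries of PLC/PRF/5 cells, 3 per group, grouped and numbered by their titles. Per the labels' protocols, total RNA was extracted with Trizol, depleted of ribosomal RNA and made into directional libraries; the submitters' processing notes name GRCh38, cutadapt 4.6 and STAR 2.7.11b. How genes were counted (program, strand, annotation) is not given in the sources used here. Deposited by the authors were raw whole-number counts per Ensembl gene, without normalization. The table lists 25071 genes with at least 2 counts in all, and 25052 matched a symbol.

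edgeR 4.0.16 (R 4.3.3) was used with filterByExpr (15816 genes kept, about 0.429 CPM in 3 libraries), TMM scaling and the quasi-likelihood test, with Benjamini-Hochberg adjustment over all tested genes and a threshold of 0.05. CPM values are TMM-scaled, standard errors come from the F statistic, and the fit was tested on simulated data. Positions, exon lengths and overlaps are from GENCODE 29, promoters from RefSeq. Alternatives were other scalings, DESeq2 1.42.0, limma-voom (limma 3.58.1), other filters, GC and length offsets, the replicate block and each library left out.

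The members and lists were chosen with earlier results of these data known. Named genes are all members, NAA10, CTNNB1, VIM, KRT8, and up to 3 changed genes per partner list with the largest fold change, without overlap and with a mean of at least 1 CPM in either group. ZEB1, ZEB2, KLF4, TCF3, ELF3, DSG1, GJC1 and the cell type markers are named outside this rule. A few genes under it are not reported here. Count ratios and printed promoters were chosen after the values were seen.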

Additional observations from a re-analysis of the deposited data

How the results depend on the processing

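Of the 32 tested junction genes, 24 kept their direction and their side of the threshold in every alternative in which they were tested. All of them were genes that had passed, and the 11 genes changed by 2-fold or more were among them. CLDN9, 1 of these, was tested in 15 of 16 alternatives, as the minimum of 1 CPM removed it. CTNND1, F11R and CXADR were lost under some alternatives, and CDH2, CLDN7, PKP4 and JUP passed under some. Beside those in the results, CTNND1 was lost under upper-quartile scaling (adjusted p = 0.0545), and CDH2 passed under RLE scaling (0.0444), DESeq2 (0.0405) and the GC and length correction (0.00201), and CLDN7 under upper-quartile scaling (0.0223), library totals alone (0.000299), limma-voom (0.0488) and a minimum of 1 CPM (0.0445). Estimates changed sign for CDH2 (0.10), JUP (0.22), PKP4 (0.19) and VIM (0.10) with library totals alone, for JUP (0.37) and CTNNB1 (-0.02) after a GC and length correction, and, when single libraries were left out, for JUP (-0.15 to 0.08) and JAM3 (-0.21 to 0.39); the cause was not tested. The count of changed junction genes was 24 to 31 over the alternatives, beside 27, and 11 when a change of 2-fold or more was also required. With that minimum the counts were 3406 for all genes and 14 for the other junction genes. Leaving out single libraries gave 9271 to 10984 changed genes, 24 to 30 junction genes and 39 to 46 other junction genes. Same-numbered libraries did not deviate together (correlations of 0.023, -0.069 and 0.072), so the numbers were not taken as pairs; with the replicate block 27 junction genes, 42 other junction genes and 10293 of all genes passed. Genes under about 10 counts per library, such as EPCAM, CLDN3 and CDH3, could not be compared at this depth.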
